A study of Mus musculus with 6 samples.

Results

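The core kinases of the PI3K-AKT-mTOR pathway were followed in RNA sequencing of peritoneal ECs from mice given PD fluid or saline. The members were the 8 rows of the deposited count table that carry the symbols Pik3ca, Pik3cb, Pik3cd, Pik3cg, Pik3r1, Akt1, Akt2 and Mtor, of 22183 genes in the table, and each symbol had 1 row. The 6 libraries came from 3 saline mice and 3 PD mice, 1 library per mouse. All were wild-type male C57BL/6J mice, 8 to 10 weeks old at the start, which received 1 intraperitoneal injection per day for 6 weeks of saline or of a glucose-based PD fluid, the solution instilled in the peritoneal cavity of dialysis patients. The sample labels describe magnetic sorting of CD31+ cells from peritoneal tissue, whereas the study's supplement has mesenteric tissue digested with collagenase and CD31+ CD45- cells collected by flow cytometry. Between 21973426 and 26374292 reads were counted per library.

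PI3K enzymes of class I sit below growth factor, antigen and chemokine receptors and make the membrane lipid PIP3. Each consists of a catalytic subunit (p110α, p110β, p110δ or p110γ) bound to a regulatory subunit. PIP3 draws the kinase AKT to the membrane, where it is phosphorylated and acts on FOXO factors, GSK3, the TSC complex and, in ECs, on endothelial nitric oxide synthase. Relief from the TSC complex activates mTOR complex 1, which promotes protein synthesis and growth. In ECs the pathway acts below the VEGF and angiopoietin receptors. p110α and p110β are found in most cell types, whereas p110δ and p110γ are best known from leukocytes. All of these steps are controlled largely by phosphorylation, which RNA sequencing does not measure.

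Leukocyte transcripts were abundant in libraries labelled as endothelial. Pecam1, the gene of CD31, was at 469 ± 19.4 CPM (read counts scaled to library size, TMM-adjusted, SD, n = 3) in saline mice and 513 ± 7.85 in PD mice (SD, n = 3). Ptprc, the gene of the pan-leukocyte antigen CD45, was at 2372 ± 127 CPM in saline mice and 1472 ± 63.6 in PD mice. On the per-length scale of FPKM, Ptprc averaged 624 and Pecam1 145 in saline mice, and Cdh5, the gene of VE-cadherin, 4.72. The summed CPM of 12 endothelial markers was 1124 to 1144 in saline mice and 1788 to 1855 in PD mice, and 11 of the 12 passed the test as higher. That of 10 pan-leukocyte markers was 11586 to 11924 and 9153 to 9257, with 8 lower and 1 higher. The sum of 8 B cell markers was 6033 to 6333 in saline mice and 2829 to 2845 in PD mice, and that of 9 macrophage markers 2642 to 2783 and 10660 to 11510. Cell types that were scarce in saline mice shifted further. The sum of 8 pancreatic acinar markers was 2.23 to 5.44 CPM in saline mice and 6370 to 7097 in PD mice, and all 8 were called higher. That of 7 mesothelial markers was 14.1 to 17.9 and 156 to 180.02 (7 higher), that of 6 fibroblast markers 86.6 to 93.0 and 807 to 836 (6 higher), and that of 6 neutrophil markers 16.9 to 20.2 and 191 to 205 (4 of 5 tested higher). Of these, the acinar gene Pnliprp1 and the neutrophil gene Ly6g were at or under 3 counts in all saline mice. None of the endothelial, pan-leukocyte, B cell or macrophage markers was at or under 3 counts in all libraries of a group. In bulk libraries, fewer cells of a type and less RNA per cell cannot be told apart. The part of these cell type differences in the values of the kinases was not tested.

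By deposited FPKM, Akt1 had the highest mean level of the 8 genes in both groups and Pik3ca the lowest. The place of Mtor is uncertain, since its FPKM implies a transcript shorter than its longest coding one, as given below, and a longer one would lower its level. In saline mice the mean FPKM was 42.4 for Akt1, 29.1 for Pik3cd, 24.7 for Akt2, 11.4 for Pik3cg, 8.78 for Pik3r1, 3.86 for Mtor, 3.02 for Pik3cb and 2.48 for Pik3ca. In that order the libraries of Akt1 overlapped with those of Pik3cd, as did Pik3cd with Akt2, Mtor with Pik3cb and Pik3cb with Pik3ca, and the other neighbours were separate. In PD mice the mean FPKM was 70.0 for Akt1, 41.1 for Pik3cd, 28.4 for Akt2, 11.99 for Pik3r1, 11.8 for Pik3cg, 3.83 for Mtor, 3.76 for Pik3cb and 1.96 for Pik3ca. There the neighbours that overlapped were Pik3r1 with Pik3cg and Mtor with Pik3cb. The leukocyte-associated catalytic subunits were thus the main class I transcripts of these libraries. Pik3cd and Pik3cg together made up 88.1%, 86.5% and 89.1% of the summed class I catalytic FPKM in saline mice, and 90.8%, 89.9% and 89.9% in PD mice. The groups did not overlap, with a mean difference of 2.29 percentage points, and p was 0.1 in a 2-sided exact permutation test, the lowest value that 3 mice against 3 allow (adjusted over 2 ratios, 0.1). Pik3ca alone took 4.30% to 7.23% in saline mice and 2.97% to 3.79% in PD mice. These shares were not corrected for GC content, which was 56.4% for Pik3cd and 40.8% for Pik3ca.

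**Figure D1:**
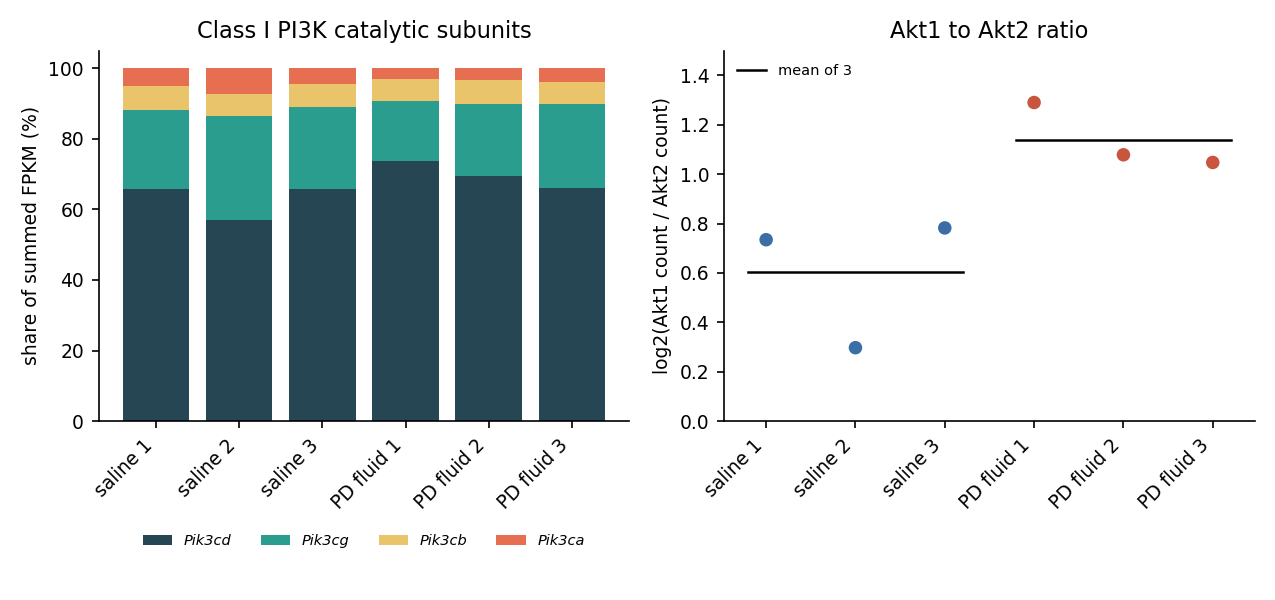
In the left panel, stacked bars give the share of each class I PI3K catalytic subunit (percent of summed FPKM, vertical axis) in the 3 saline and 3 PD mice (PD fluid), and in the right panel points give the log2 ratio of Akt1 to Akt2 counts in each library, with a bar at the mean of 3. Pik3cd was the main catalytic subunit in each library, at 57.0% to 65.8% in saline mice and 66.1% to 73.8% in PD mice, and the Akt1 to Akt2 ratio was 0.30 to 0.78 in saline mice and 1.05 to 1.29 in PD mice.

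The 8 genes were then compared between PD mice and saline mice. The edgeR quasi-likelihood test was fitted to all 14005 genes that passed a filter on low counts, with p adjusted by the Benjamini-Hochberg method and called under 0.05. All 8 members passed the filter. Akt1, Akt2, Pik3cd and Pik3r1 were called higher and Pik3ca lower in PD mice on the TMM scale, while 7 of the 8 were lower and none higher once the libraries were scaled to the endothelial markers. Under that scaling, 10116 of all 14005 genes tested were called lower and 1159 higher. On the TMM scale, 58.9% of all genes tested were called, 31.1% as higher and 27.8% as lower. The 5 calls among 8 members were near that share. The 5 called genes were also those whose libraries did not overlap between the groups, which held for 65.6% of all genes tested. The members' median log2 fold change was 0.28, with a range of -0.33 to 0.73, against a median of 0.02 over all genes tested.

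**Figure D2:**
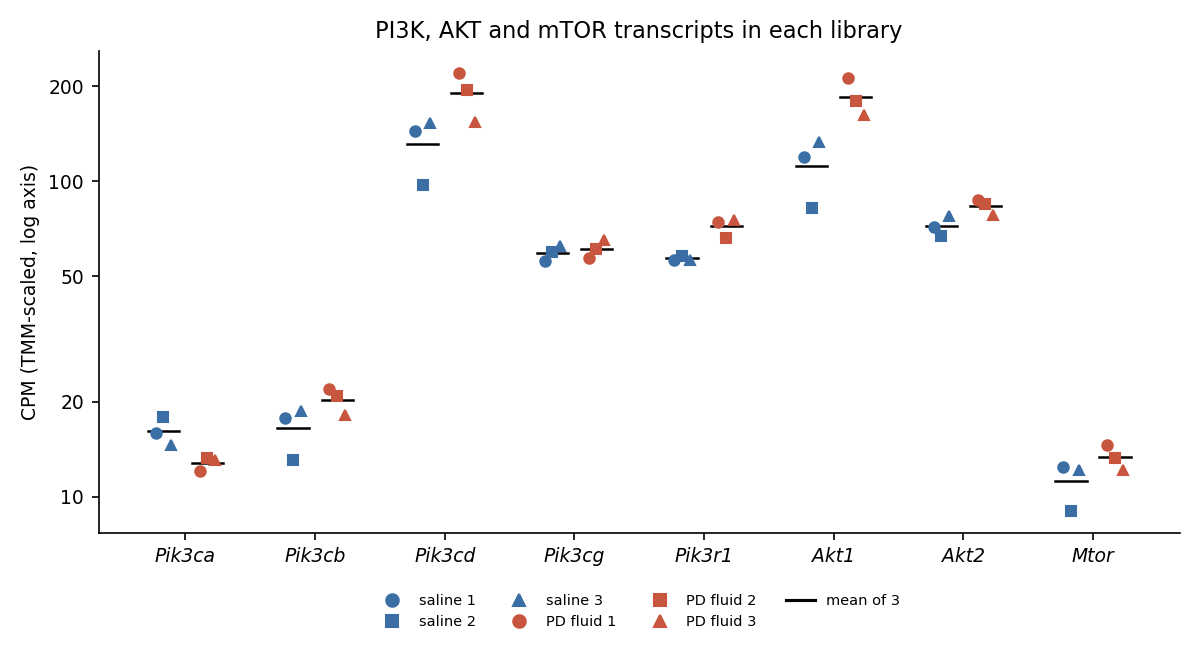
CPM after TMM scaling (vertical axis, logarithmic) of the 8 genes in each library, with saline mice in blue, PD mice (PD fluid) in red, a marker shape for each replicate number and a bar at the mean of 3. The PD mice lay above the saline mice for Akt1, Akt2, Pik3cd and Pik3r1 and below them for Pik3ca on this scale, a direction that turned for the 4 higher genes under endothelial marker scaling.

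Among the catalytic subunits, Pik3cd was higher and Pik3ca lower in PD mice, and Pik3cg and Pik3cb were not called. Pik3cd (ENSMUSG00000039936, GRCm38 chr4:149649168-149702571, minus strand) encodes p110δ, which works below antigen and cytokine receptors. It was at 145, 97.3 and 153 CPM in saline mice and at 221, 195 and 154 CPM in PD mice. The groups were separated by about 1 CPM only, with saline mouse 3 just under PD mouse 3. The log2 fold change was 0.53 (SE 0.16, edgeR adjusted p = 0.016), and without PD mouse 1 it was 0.41 (edgeR adjusted p = 0.071).

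Pik3cg (ENSMUSG00000020573, chr12:32173473-32208659, minus strand) encodes p110γ, the subunit activated by G protein-coupled receptors such as those for chemokines. Its CPM was 55.7, 59.9 and 62.4 in saline mice and 57.0, 60.9 and 65.1 in PD mice. The groups overlapped almost fully, and the log2 fold change was 0.04 with a 95% interval of -0.14 to 0.21.

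Pik3ca (ENSMUSG00000027665, chr3:32397671-32468486, plus strand) encodes p110α, the isoform on which VEGF signalling in ECs mostly depends. It was at 15.9, 18.0 and 14.6 CPM in saline mice and at 12.1, 13.2 and 13.1 CPM in PD mice. All 3 PD mice were lower, with a log2 fold change of -0.33 (SE 0.12, edgeR adjusted p = 0.032). With any library other than saline mouse 3 left out, it was between -0.35 and -0.25 and was not called (edgeR adjusted p of 0.054 to 0.11).

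Pik3cb (ENSMUSG00000032462, chr9:99036654-99140621, minus strand) encodes p110β, which takes input from both receptor tyrosine kinases and G protein-coupled receptors. It was at 17.7, 13.05 and 18.7 CPM in saline mice and at 21.9, 20.96 and 18.2 CPM in PD mice. Saline mouse 3 lay above PD mouse 3, so the groups overlapped, and the log2 fold change was 0.30 (95% interval -0.01 to 0.62, edgeR adjusted p = 0.089). Without saline mouse 3 it was 0.40 (edgeR adjusted p = 0.049).

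Pik3r1 (ENSMUSG00000041417, chr13:101680563-101768217, minus strand) encodes p85α and its shorter forms, which stabilise p110α, p110β and p110δ and hold them inactive until a receptor is engaged. Its CPM was 56.5, 58.0 and 56.5 in saline mice and 74.5, 66.1 and 75.6 in PD mice. The saline mice were tightly grouped and all PD mice lay above them. The log2 fold change was 0.34 (SE 0.08, edgeR adjusted p = 0.0028), it stayed between 0.30 and 0.41 on omission of any 1 mouse, and it passed the test in 6 of 6 such fits. Relative to the summed FPKM of the 4 catalytic subunits, Pik3r1 averaged 0.194 in saline mice and 0.206 in PD mice, and the groups overlapped.

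The 4 other class I regulatory subunits measured were all called higher in PD mice on the TMM scale, whereas under endothelial scaling 0 were higher and 2 lower. With the correction for GC content described below, 3 were higher and 0 lower. Pik3r5 encodes p101, which pairs with p110γ, and was at 22.7, 18.6 and 26.4 CPM in saline mice and 62.6, 47.9 and 40.5 CPM in PD mice. This came to a log2 fold change of 1.16 (SE 0.16, edgeR adjusted p = 0.00014). Pik3r2, which encodes p85β, had a log2 fold change of 0.45 (SE 0.17, edgeR adjusted p = 0.038). The remaining pair, named to complete the list after their values were seen, was Pik3r6, the other p110γ partner (p84), at 0.92 and Pik3r3 (p55γ) at 0.50. The partners of p110γ thus had log2 fold changes of 0.92 and 1.16, beside 0.04 for Pik3cg itself. These differences between genes were not tested.

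Of Akt1 and Akt2, Akt1 had the larger change, and it had the largest log2 fold change among the 8 members under TMM scaling. Akt1 (ENSMUSG00000001729, chr12:112653821-112674884, minus strand) encodes the isoform most studied in endothelial growth and nitric oxide production. It was at 119, 82.5 and 133 CPM in saline mice and at 213, 179.5 and 162 CPM in PD mice. All PD mice lay above all saline mice, and saline mouse 2 was the lowest of its group. The means were 112 ± 26.3 and 185 ± 25.9 CPM (SD, n = 3 each), and the log2 fold change was 0.73 (95% interval 0.39 to 1.06, SE 0.15, edgeR adjusted p = 0.0020). It was 0.55 to 0.87 with each mouse left out in turn and passed in 6 of 6 fits. Akt1 is among genes that the study chose for a heatmap of these libraries, so its rise is not independent of that choice.

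Akt2 (ENSMUSG00000004056, chr7:27591552-27640826, plus strand) encodes the isoform known for insulin responses. Its CPM was 71.8, 67.1 and 77.6 in saline mice and 87.1, 85.0 and 78.4 in PD mice. The groups were separate by less than 1 CPM, with a log2 fold change of 0.21 (SE 0.08, edgeR adjusted p = 0.036). Without saline mouse 1, saline mouse 2, PD mouse 1 or PD mouse 2 it was 0.17 to 0.22 and was no longer called (edgeR adjusted p of 0.087 to 0.10).

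A ratio within a library does not depend on how libraries are scaled. It can still move with GC content, which was 59.4% for Akt1 and 54.8% for Akt2, and the ratio was not corrected for it. With the GC correction described below, the log2 fold changes were 0.38 for Akt1 and -0.01 for Akt2. The log2 ratio of Akt1 to Akt2 counts was 0.73, 0.30 and 0.78 in saline mice and 1.29, 1.08 and 1.05 in PD mice. Every PD mouse was higher, with a difference of 0.53, and p was again 0.1 in the 2-sided exact permutation test, the lowest possible here.

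Promoter sequence is shown for the 2 members called higher in every leave-one-out fit, Akt1 and Pik3r1, and for Akt2 as the isoform set beside Akt1. Each line gives the 250 bases before the outermost start of the gene in RefSeq on GRCm38.p6, 5′ to 3′ on the gene's strand, with matches to a FOXO motif (TGTTTAC) or a GC box (GGGCGG), on either strand, in capitals.
Akt1 (chr12:112674885-112675134, minus strand): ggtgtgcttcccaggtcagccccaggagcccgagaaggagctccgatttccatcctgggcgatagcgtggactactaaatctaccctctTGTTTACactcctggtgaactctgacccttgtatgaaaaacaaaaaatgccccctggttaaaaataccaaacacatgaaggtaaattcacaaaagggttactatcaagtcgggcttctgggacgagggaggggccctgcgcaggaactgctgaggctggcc
Akt2 (chr7:27591302-27591551, plus strand): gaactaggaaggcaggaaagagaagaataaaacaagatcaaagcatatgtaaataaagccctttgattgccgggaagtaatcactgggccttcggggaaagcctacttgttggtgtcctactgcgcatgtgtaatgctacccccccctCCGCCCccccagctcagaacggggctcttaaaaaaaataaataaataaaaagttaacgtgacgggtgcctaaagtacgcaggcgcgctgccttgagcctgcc
Pik3r1 (chr13:101768218-101768467, minus strand): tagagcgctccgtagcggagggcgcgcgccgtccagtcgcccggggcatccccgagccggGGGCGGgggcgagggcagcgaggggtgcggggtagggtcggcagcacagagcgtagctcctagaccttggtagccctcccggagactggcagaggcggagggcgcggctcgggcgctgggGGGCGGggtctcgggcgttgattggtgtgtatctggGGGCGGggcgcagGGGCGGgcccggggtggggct
The Akt1 window holds 1 FOXO match and no GC box, the Akt2 window 1 GC box, and the Pik3r1 window 4. A second RefSeq start of Akt1, inside the annotated gene, has 4 GC boxes and no FOXO match in its window (chr12:112674277-112674526, minus strand), which is not printed. The G and C content of the printed windows is 52.0%, 48.8% and 76.4%. Over the 16 RefSeq starts of the 8 genes, the FOXO letters occurred in 2 windows, of Akt1 and Pik3cg, against 3.17% of 32851 windows of the same length. GC boxes occurred in 8 of the 16 windows, from 7 of the genes, against 32.7%, and the letters of the E-box CACGTG in 0 of 16, against 6.02%. A match is a run of letters, and binding was not measured.

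Mtor (ENSMUSG00000028991, chr4:148448611-148557683, plus strand), the kinase shared by mTOR complexes 1 and 2, was not called. It was at 12.5, 9.04 and 12.1 CPM in saline mice and at 14.6, 13.3 and 12.2 CPM in PD mice. PD mouse 3 fell among the saline mice. The log2 fold change was 0.25 (SE 0.15, 95% interval -0.07 to 0.58, edgeR adjusted p = 0.16), so a change of up to that upper bound is within the error. With limma on log2(FPKM + 1) of the deposited values, the difference for Mtor was -0.0034. The transcript length implied by its counts and FPKM ranged from 2643 to 3684 bases between libraries, against 8564 for its longest coding transcript, while that of Akt1 stayed within 2603 to 2682. Mtor also overlaps Angptl7 on the opposite strand, whose counts were 129 to 135 in saline mice and 207 to 252 in PD mice, beside 196 to 319 and 269 to 397 for Mtor.

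The direction of most members depended on which cell type the libraries were scaled to. The scaling used the geometric mean of the counts of a marker set, in which every marker weighs the same whatever its level. With that mean held equal for the endothelial markers, the median log2 fold change over all genes was -0.96. Of all 14005 genes tested, 10116 were then called lower and 1159 higher. Of the 8 members, 7 were called lower. The exception was Akt1, at -0.25 (edgeR adjusted p = 0.084). With the pan-leukocyte markers held equal, the median over all genes was 0.36, with 7438 genes called higher and 950 lower. Of the members, 7 were called higher, the exception being Pik3ca at 0.01 (edgeR adjusted p = 0.95). Each scaling moves all genes of a library by the same factor, so the differences between genes and their order are fixed by construction. Relative to the median of all genes, the log2 fold change was 0.71 for Akt1, 0.51 for Pik3cd and -0.35 for Pik3ca. Set against a single marker, all 8 members were higher per 1000 Ptprc counts in PD mice with no overlap, with Akt1 rising from a mean of 47.6 to 126. Ptprc itself had a log2 fold change of -0.69, below that of every member, so a rise of all members on this ratio follows from its fall. Per 1000 Pecam1 counts, Akt1 (240.2 and 360.2) and Pik3r1 (122 and 140.4) were higher with no overlap, Pik3ca was lower (34.4 and 25.0), and the groups overlapped for the other 5. The share of all genes without overlap on either ratio was not computed.

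Base composition also moved with the groups. The log2 CPM of each gene was taken relative to its mean over all libraries, and its slope on transcript GC content was found in each library. In log2 units per 10% GC, this slope was -0.10, -0.29 and -0.06 in saline mice and 0.23, 0.14 and 0.07 in PD mice. Saline mouse 2 was farthest from the others of its group. Because of the centring the signs are relative, and only differences between libraries can be read from them. Akt1 (59.4%), Pik3cd (56.4%) and Akt2 (54.8%) had the highest GC content of the 8 members and Pik3ca (40.8%) the lowest. After correction for GC content, an alternative chosen after seeing the data, Akt1 was at 0.38 (edgeR adjusted p = 0.0021) and Pik3r1 (46.3% GC) at 0.42 (edgeR adjusted p = 0.00058). Akt2 was then at -0.01, Pik3ca at -0.15 and Pik3cd at 0.29 (edgeR adjusted p of 0.93, 0.27 and 0.050), and none of these was called. Akt1 and Pik3r1 were therefore the members called in the same direction with and without this correction.

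**Figure D3:**
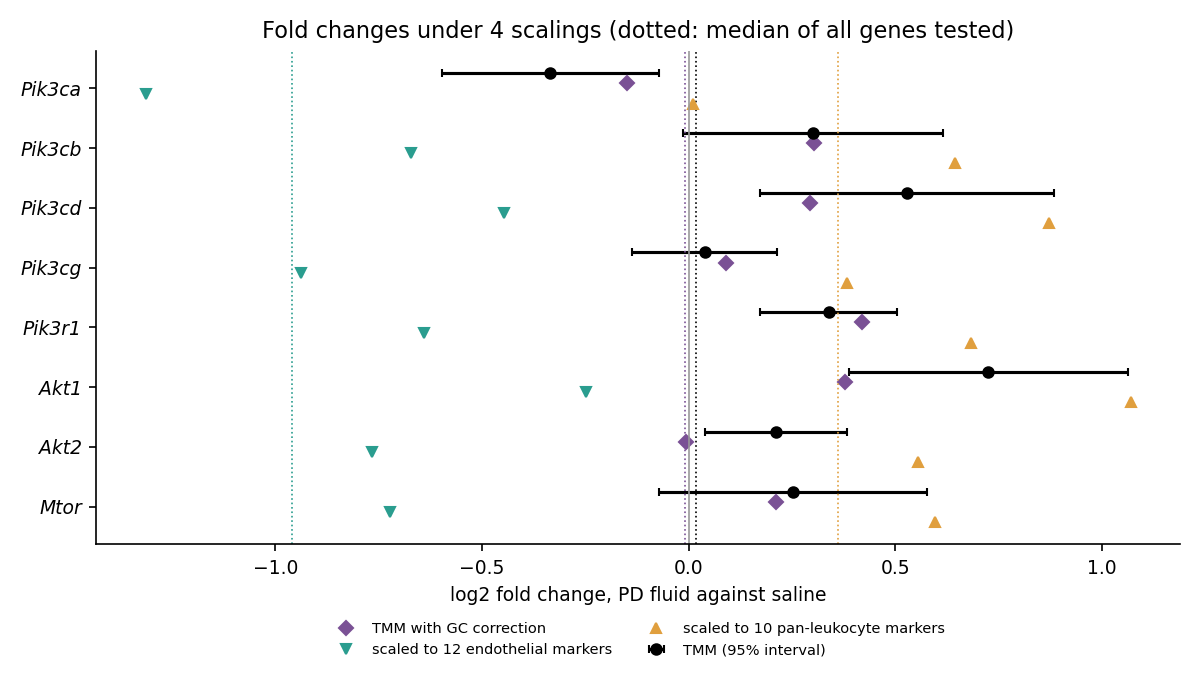
Log2 fold change of PD mice against saline mice (horizontal axis) for the 8 genes under TMM scaling with its 95% interval, with GC correction, and with libraries scaled to endothelial or pan-leukocyte markers; dotted lines mark the median of all genes tested under each. Endothelial scaling placed all 8 members below 0 and pan-leukocyte scaling all 8 above it. With GC correction, Pik3r1 (0.42) stood above Akt1 (0.38).

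Upstream of the kinases, transcripts of receptors and adaptors were mostly higher in PD mice on the TMM scale. Of 96 other pathway genes, 93 were tested, of which 36 were called higher and 27 lower with a median log2 fold change of 0.03, near the 0.02 of all genes; under endothelial scaling 9 were higher and 67 lower, and under pan-leukocyte scaling 53 and 2. Among the receptors and adaptors, 15 of 18 were higher and 2 lower, with a median of 1.04, and under endothelial scaling 7 were higher and 4 lower. The largest rise was that of Pdgfra, the PDGF receptor of fibroblasts, at 2.23, 2.49 and 2.40 CPM in saline mice and 10.7, 13.6 and 12.05 CPM in PD mice (log2 fold change 2.35, edgeR adjusted p = 5.9e-07). It is also among the 6 fibroblast markers whose sum is given above. Grb2, an adaptor common to many receptors, was lower (log2 fold change -0.29, edgeR adjusted p = 0.0024). Several other receptors on the list are also cell type markers. These are Kdr, Flt1 and Tek (endothelial), Csf1r (macrophage), Pdgfrb (mural cells of the vessel wall) and Kit (mast cell). Part of the list therefore moves with those marker sets.

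Of 8 phosphatases and inhibitors that oppose PI3K and AKT, 1 was higher and 2 lower on the TMM scale, against 1 and 7 under endothelial scaling and 4 and 0 under pan-leukocyte scaling. Pik3ip1, a transmembrane inhibitor of PI3K, was lower, with a log2 fold change of -0.34 (SE 0.06, edgeR adjusted p = 0.00081). Inppl1 (SHIP2) was at 1.61 (SE 0.26, edgeR adjusted p = 0.00035). Inpp5d, the leukocyte phosphatase SHIP1, was not called at 0.18 (SE 0.09, edgeR adjusted p = 0.087). Among the class II and III PI3K genes, 3 of 4 were lower and none higher, and under pan-leukocyte scaling 1 was lower and 1 higher. The largest fall was that of Pik3c2b at -0.86 (SE 0.15, edgeR adjusted p = 0.00061).

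Of 9 AKT substrates tested, 2 were higher and 1 lower on the TMM scale, against 1 and 7 under endothelial scaling, 4 and 0 under pan-leukocyte scaling and 1 and 3 with GC correction. Nos3, the endothelial nitric oxide synthase, was at 13.9, 8.11 and 15.5 CPM in saline mice and 49.1, 37.5 and 31.6 CPM in PD mice, with no overlap (log2 fold change 1.65, SE 0.22, edgeR adjusted p = 8.8e-05). Gsk3b, a kinase that AKT inhibits, was at -0.43 (SE 0.10, edgeR adjusted p = 0.0033). The 2 subunits of the TSC complex that restrain mTOR moved in opposite directions, Tsc2 at 0.53 (edgeR adjusted p = 0.0047) and Tsc1 at -0.45 (edgeR adjusted p = 0.0020), though all 5 genes of that list were lower under endothelial scaling. Of the 6 FOXO target genes, which active AKT is known to keep low through FOXO, 4 were lower and 1 higher, with a median of -0.41, against 1 lower and 2 higher under pan-leukocyte scaling. Cdkn1b, the cell cycle inhibitor p27, was at -0.69 (edgeR adjusted p = 0.0026), and Klf2, a flow-responsive factor of ECs that lymphocytes also express, was at 0.68 (edgeR adjusted p = 0.00088).

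Around mTOR, 2 of 8 complex partners were higher and 2 lower on the TMM scale, against 0 and 7 under endothelial scaling. Deptor, an inhibitor of mTOR, was at 11.0, 11.2 and 8.57 CPM in saline mice and 22.3, 20.1 and 25.0 CPM in PD mice (log2 fold change 1.13, SE 0.14, edgeR adjusted p = 4.3e-05). Rictor, which defines mTOR complex 2, was at -0.28 (SE 0.08, edgeR adjusted p = 0.015) and Prr5, another component of that complex, at -0.57 (SE 0.10, edgeR adjusted p = 0.00050). Rptor, which defines mTOR complex 1, was not called (log2 fold change 0.33, SE 0.21, edgeR adjusted p = 0.19). Of 18 genes for Rag GTPases and amino acid sensors, 7 were higher and 7 lower on the TMM scale, against 0 and 15 under endothelial scaling and 8 and 0 under pan-leukocyte scaling. Their TMM log2 fold changes ran from -0.54 for Lamtor2 to 1.25 for Rragd. Of 11 genes that act below mTOR complex 1, 3 were higher and 4 lower on the TMM scale, against 0 and 8 under endothelial scaling and 6 and 0 under pan-leukocyte scaling. Eef2k, which slows translation elongation, was at 0.98, and Eif4ebp1, which restrains translation initiation, at 0.46, whereas Rps6 was at -0.39 and its kinase gene Rps6kb1 at -0.30 (edgeR adjusted p between 3.7e-05 and 0.0085).

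**Figure D4:**
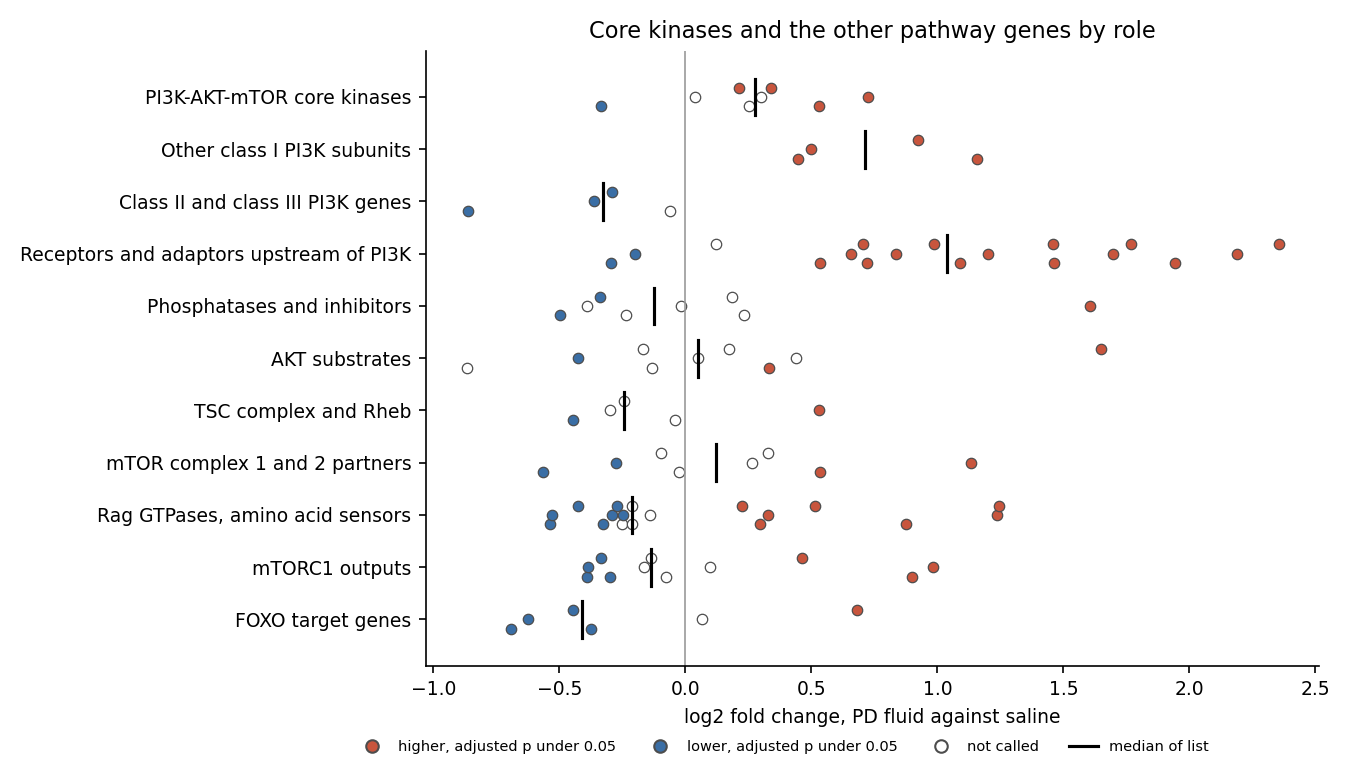
Log2 fold change under TMM scaling (horizontal axis) of the 8 core kinases and of other pathway genes tested, in rows by role; red points were called higher, blue lower, and open points were not called, with a bar at each row's median. Receptors and adaptors reached a median of 1.04 and FOXO targets -0.41, and under endothelial scaling 67 of the 93 other pathway genes tested were called lower.

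The genes most like each member across the 6 libraries were sought among 176 genes of the pathway and marker lists with a mean of at least 10 counts, by the root mean square difference of centred log2 CPM. Klf2 was nearest to Akt1 (0.063 log2 units), and Pik3r2 to Pik3cd (0.057). Rps6 was nearest to Pik3ca (0.039), Akt1s1, an mTOR complex 1 partner, to Akt2 (0.057), Pik3cb (0.10) and Mtor (0.086), Mdm2 to Pik3cg (0.054) and Lamtor3 to Pik3r1 (0.066). The second nearest were Irs2 for Akt1, Flcn for Akt2, Cd3g for Pik3ca, Pik3r2 for Pik3cb, Klf2 for Pik3cd, Nkg7 for Pik3cg, Laptm5 for Pik3r1 and Inpp5d for Mtor. With 6 libraries in 2 groups, these likenesses share the group difference and the library composition described above.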

How the data were processed

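RNA was sequenced from sorted peritoneal ECs of 3 saline and 3 PD mice, grouped by the treatment in the labels. The authors deposited a table of unnormalized read counts and of FPKM values per library for 22183 genes; per the labels, oligo(dT)-enriched libraries were made, and the submitters' processing notes name fastp 0.18.0, Bowtie2 2.2.8, HISAT2, StringTie and RSEM. The genome build was not given in the sources used here, and positions are those of GENCODE M21 on GRCm38, in which 22128 identifiers were found. The table also holds group means, log2 ratios, P values and FDR from the authors' own comparison, which were not used. The results of some pathway genes are not reported here.

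Counts were tested with edgeR 4.0.16 (filterByExpr, TMM, quasi-likelihood F test, no covariate) in R 4.3.3, with Benjamini-Hochberg adjustment over 14005 genes and a threshold of 0.05. FPKM was used for levels between genes, and limma 3.58.1 on log2(FPKM + 1) as an alternative. Ratios within libraries were compared by 2-sided exact permutation tests, whose smallest p is 0.1. Per mouse, 21973426 to 26374292 counts were available, and each member had at least 196. How much of the spread of each member came from counting rather than from the mice was not computed. On simulated counts for this comparison, 173 of 196 changed genes (88.3%) were recovered among 13846 tested, with 16 false calls. Fewer genes were changed there than the 8246 of 14005 called in the data. Recovery at the log2 fold changes of the members, -0.33 to 0.73, was not tested, so the share of 88.3% says nothing about them. The members and gene lists were chosen with earlier results of these data known. Named pathway genes were the called, non-overlapping genes with the largest rise and fall in each list (mean of at least 10 counts) and a set of named regulators. Alternatives were a replicate block, no filter, DESeq2 1.42.0, limma-voom, total counts, scaling to endothelial or pan-leukocyte markers, FPKM and leaving out each mouse. GC correction (50 bins) and leaving out 2 libraries together were chosen after seeing the data. Tables were made with Python 3.11.15, pandas 2.3.3, numpy 2.4.6 and scipy 1.17.1. Separate animals are given by the methods, and P values cover the spread between these mice.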

Additional observations from a re-analysis of the deposited data

How the results depend on the processing

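Akt1 and Pik3r1 were called higher under every alternative tried except scaling to endothelial markers. Under that scaling the log2 fold changes were -0.25 for Akt1, -0.77 for Akt2, -0.67 for Pik3cb, -0.45 for Pik3cd, -0.94 for Pik3cg, -0.64 for Pik3r1 and -0.72 for Mtor, with 0 members called higher and 7 lower. Over all genes it gave 1159 higher and 10116 lower (10.3% of calls higher), against 4359 and 3887 (52.9%) under TMM, and among the other pathway genes 9 higher and 67 lower. Scaling to pan-leukocyte markers gave 7438 higher and 950 lower (88.7%), 7 members higher and 0 lower, and 2 pathway genes lower. Pik3ca was then at 0.010, Pik3cb at 0.65, Pik3cg at 0.38 and Mtor at 0.60. That these shifts follow the markers is in the construction of each scaling.

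With GC correction, 2 members were called, both higher and 0 lower, with Akt2 at -0.0069, Pik3ca at -0.15 and Pik3cd at 0.29. The replicate block with GC correction called 3 members, 0 of them lower, and 7831 of all genes, with Akt2 at -0.0069 and Pik3ca at -0.15. On log2(FPKM + 1), limma called 3 members, 0 of them lower, and 7825 of all genes, with Akt2 at 0.19, Pik3ca at -0.23 and Mtor at -0.0034. Without saline mouse 2 and PD mouse 3 together, Pik3ca was at -0.26 and 0 members were called lower, against 3726 of all genes. With no filter, DESeq2, limma-voom or total counts, the same number of members was called. The cause of these changes was not tested.

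With each mouse left out in turn, 2 to 6 members were called, 2 to 5 higher and 0 to 1 lower. Over all genes tested, 6961 to 7931 were called in these fits. The log2 fold changes were 0.55 to 0.87 for Akt1, 0.17 to 0.27 for Akt2, -0.40 to -0.25 for Pik3ca, 0.17 to 0.40 for Pik3cb, 0.36 to 0.66 for Pik3cd, -0.010 to 0.10 for Pik3cg (below 0 without PD mouse 3), 0.30 to 0.41 for Pik3r1 and 0.13 to 0.35 for Mtor. As a paired fit, the replicate block gave 4242 higher and 3667 lower genes and 3 members higher and 1 lower, with Akt2 at 0.21 (edgeR adjusted p = 0.061). Same-numbered mice correlated at 0.10, 0.04 and -0.17 in their deviations from the group means, and differently numbered mice at -0.27 to 0.23. With 3 mice per group, these values cannot decide whether the numbers paired the samples.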
